A study of Mus musculus with 4 samples.

Results

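The Pax7 peaks described here are those that lay in exons away from promoters in iPax7 muscle progenitors. A peak was included when its summit, the position of highest ChIP signal, fell inside an exon of any GENCODE vM1 transcript and farther than 1 kb from the transcription start site (TSS) of every annotated transcript. Of 20579 Pax7 peaks, 524 met this rule. These were 196 peaks in coding sequence, 225 in untranslated regions (UTRs) and 103 in noncoding exons. At the last, no transcript had coding sequence or UTR at the summit, though other transcripts could have an intron there. The other 923 of the 1447 exonic summits were within 1 kb of a TSS and were left out.

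The study asked where Pax7 sits on the genome of mouse embryonic stem cell (ESC)-derived myogenic progenitors. In iPax7 cells a Pax7 transgene is switched on by doxycycline (Dox), which was given at 1 µg/ml from day 3 of embryoid body culture. PDGFRα+FLK1- cells were sorted on day 5, replated with Dox and basic FGF, and harvested on day 9, after 6 days of Dox. The series held 2 Pax7 ChIP libraries and 2 input libraries (chromatin without immunoprecipitation), all from Dox-treated cells, and the authors called peaks on the merged replicates. No peak therefore has a replicate error, and Pax7 came from a transgene rather than only from its own locus. The list holds no expression values, so the identity of the sorted cells could not be checked against marker genes here.

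Pax7 is a paired-box and homeodomain transcription factor of satellite cells, the stem cells of skeletal muscle. Its paired domain and its homeodomain each recognise a short DNA word, and the factor can use either or both. Most sites of such factors lie in introns or between genes, but exons are chromatin too, and a base in a coding exon can be read both by a DNA-binding protein and by the ribosome.

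The paired-box word was found at 83 of the 524 exonic summits. It was more frequent there than in the DNA beside them, as it also was at intronic and intergenic summits. Sequences at exonic summits that hold this or another Pax word are shown here. Each is 29 bp of the NCBIM37 (mm9) genome, read 5′ to 3′ on the strand that carries the word. Capitals mark GTCACG, the paired-box core. The first set is the coding exon peaks that hold the core and have the highest fold enrichment. Their summits lie in coding sequence, but the flanks need not be coding throughout.
Wasf3 (chr5:147246982-147247010, minus strand): gcgtgctgttgGTCACGcattccagctca
Dagla (chr19:10322824-10322852, plus strand): aggtggccctcGTCACGctccagtactgc
Sbk1 (chr7:133435414-133435442, minus strand): tcgggcttgatGTCACGgtgcaccagctg
Cyfip2 (chr11:46103167-46103195, minus strand): ggaatgcatttGTCACGggcattgcaagg
Nup210 (chr6:90992284-90992312, plus strand): cagatttgtccGTCACGcttgcagacagg
Kng1 (chr16:23079406-23079434, plus strand): acatggtcatgGTCACGgacatggtcatg

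The next set comes from 3′ UTRs and from an exon of a noncoding transcript of A930011G23Rik, with the core in capitals. Tcf12 is included as a member of the myogenic regulator list.
Ctdspl2 (chr2:121837521-121837549, plus strand): gaaaataagtcGTCACGccttggttctct
Fbxo45 (chr16:32230424-32230452, plus strand): acgtttccctgGTCACGgtggctgcagct
Pigv (chr4:133216603-133216631, plus strand): ttgagctttctGTCACGgtcggagggagt
Tcf12 (chr9:71693238-71693266, minus strand): caagagcaatgGTCACGgttccttaccct
A930011G23Rik (chr5:99987460-99987488, minus strand): acaactgacagGTCACGcctgcagcctgc

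The last set holds ATTAGTCA in capitals, the word in which a homeodomain half-site runs into the start of the paired-box site, called the paired-homeobox joint below. Dnalc1 and 2010111I01Rik are 3′ UTR peaks. Gm16727 is annotated as a long intergenic noncoding RNA (lincRNA), but its summit also lies within the span of a coding transcript of another gene.
Dnalc1 (chr12:85483375-85483403, minus strand): ctgttgcttcATTAGTCAcagactcattc
Gm16727 (chr11:76429469-76429497, plus strand): caacaatctcATTAGTCAttgacagagtg
2010111I01Rik (chr13:63170338-63170366, plus strand): gtttttccctATTAGTCAaggaaattctt

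Exons away from promoters held a share of Pax7 summits close to their share of the genome. They took 2.55% of summits (95% Wilson interval 2.34 to 2.77%) and 2.42% of sequenced bases, a ratio of 1.05 (0.966 to 1.14). Coding sequence held 0.952% of summits and 1.03% of the genome, a ratio of 0.924 (0.804 to 1.06). UTRs held 1.09% of summits and 0.988% of the genome, a ratio of 1.11 (0.972 to 1.26). Noncoding exons held 0.501% of summits and 0.404% of the genome, with a ratio of 1.24 (1.02 to 1.501) whose interval lay above 1. For comparison, the ratio was 1.18 (1.16 to 1.20) in introns and 0.677 (0.665 to 0.688) in intergenic sequence. The coding ratio was thus below that of introns, while the intervals of the UTR and noncoding ratios overlapped it. All intervals given here cover counting error only, and they do not account for how much of each class a short read can be placed in.

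**Figure D1:**
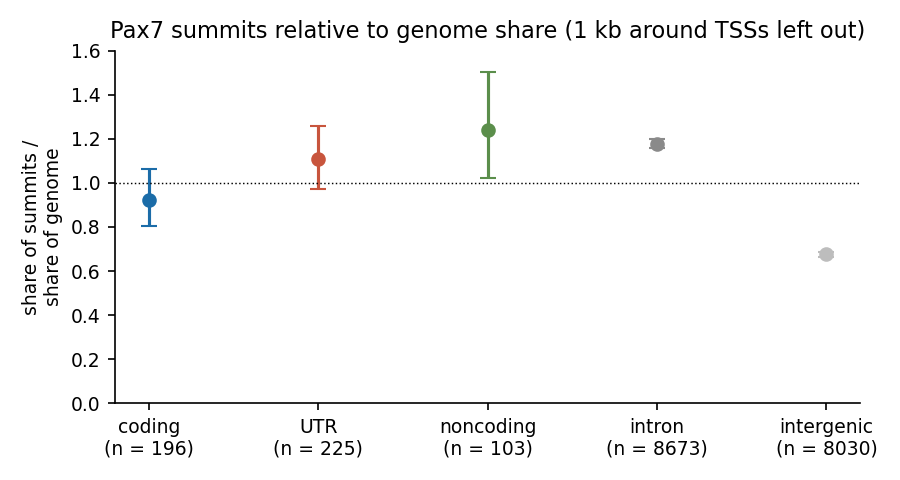
Share of Pax7 summits divided by share of the genome (y axis, no unit) for coding, UTR and noncoding exons, introns and intergenic sequence, all beyond 1 kb from any TSS. Points are ratios and bars 95% Wilson intervals. Coding exons sit at 0.924 and noncoding exons at 1.24, and the dotted line marks equal shares.

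The peaks were spread over many genes. The 524 peaks fell in 500 genes, and 468 of them were in protein-coding genes. A gene with several exonic peaks was rare, with 22 genes holding 46 peaks between them. Ttn, which encodes the giant sarcomere protein titin, and 2010111I01Rik each had 3. There were 0 peaks in the exons of Pax7 itself, and 8 lay on the X chromosome. The 32 bases around the summit occurred once in the genome for 520 of the 524 peaks. The other 4 were in Odc1, Rpf2, Ubtd2 and Zfp677, with 6, 2, 2 and 4 copies, and their placement is uncertain.

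The position within the gene differed by class. The class definitions and the 1 kb limit in part set these positions, and the matching shares of annotated sequence were not computed. Of the 196 coding peaks, 70.4% (63.7 to 76.4%) were in internal exons, 24.5% in last exons and 3.57% in first exons. The median exon was 209.5 bp long and the summit lay a median of 57.5 bp from its nearer boundary. Of the coding peaks, 71.4% reached past an edge of the exon, with UTR of the same exon counted as inside. Of the 219 peaks in 3′ UTRs, 95.4% were in the last exon, the median exon was 2439 bp and 90.0% of peaks lay wholly inside it. Noncoding exons were mostly last exons as well (85.4%), with a median length of 1553 bp. At the summit, 91.3% of coding peaks and 85.3% of UTR peaks were exonic in every transcript of the gene that covered it. Among noncoding exon peaks this held for 50.5%. Of these 103 peaks, 47 lay in noncoding transcripts of protein-coding genes, 28 in processed transcripts, 26 in lincRNAs and 2 in pseudogenes. Those of the 47 named here were each exonic in 1 transcript of the gene and intronic in its other transcripts at that position. Several, among them Notch1, Lama4 and Cdh2, lay in transcripts annotated as retained introns, which keep an intron as exon.

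Fold enrichment, the authors' ratio of merged ChIP reads to local background at the summit, was close to that of other peaks on the cuts tested. The median over the 524 peaks was 5.30 (interquartile range 4.38 to 6.66, range 2.22 to 20.9). It was 5.19 in coding sequence, 5.44 in 3′ UTRs, 5.05 in the 6 peaks of 5′ UTRs, 5.24 in noncoding exons, and 5.23 in both introns and intergenic sequence. Values of at least 5 were seen in 301 exonic peaks (57.4%), against 54.9% of all peaks. The difference from intronic peaks was 2.06 percentage points (95% Newcombe interval -2.33 to 6.36). For coding peaks it was 0.233 points (-6.84 to 7.10), and the sign of this value changed with the cut and the comparison class. Values of at least 10 were seen in 39 exonic peaks (7.44%), against 6.99% of all peaks. These were 10 coding, 23 UTR and 6 noncoding exon peaks, or 5.10%, 10.2% and 5.83% of each class. Coding minus UTR peaks came to -5.12 points on this cut, with an interval of -10.3 to 0.0999 that includes 0. Another Pax7 peak lay within 5 kb of 24.2% of exonic peaks and of 25.7% of intronic peaks, a difference of -1.51 points (-5.11 to 2.44).

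**Figure D2:**
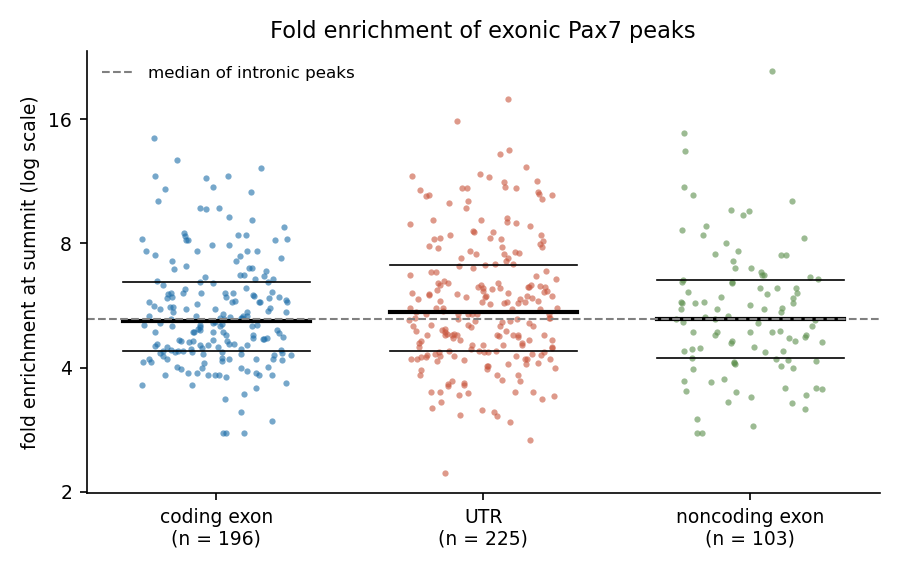
Fold enrichment at the summit (y axis, log scale, ratio) for each coding exon (n = 196), UTR (n = 225) and noncoding exon peak (n = 103). Thick lines are medians (5.19, 5.44 and 5.24), thin lines quartiles, and the dashed line is the median of intronic peaks, 5.23. The 3 distributions overlap over nearly their whole range.

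Among coding exon peaks, the highest was in exon 18 of 19 of Stxbp3a, which encodes a syntaxin-binding protein of vesicle docking. It ran from 108597646 to 108597983 on chromosome 3 and reached 14.4-fold, above 98.6% of all Pax7 peaks. The next was in exon 3 of 10 of Wasf3, a WAVE-family regulator of actin assembly, at 12.7-fold (chromosome 5, 147246846 to 147247143), with the core 11.5 bp from the summit. Zfp51, a zinc-finger gene, followed at 12.2-fold. Dse, an enzyme that forms dermatan sulfate, and Lrp5, a Wnt co-receptor, both had 11.7-fold. Spnb5, a beta spectrin gene, had 11.5-fold. Dagla, which makes an endocannabinoid, had 10.9-fold enrichment in its last coding exon. Whsc1l1, a histone methyltransferase gene, had 10.8-fold and Pds5a, a cohesin regulator gene, 10.6-fold. Eea1, a tether of early endosomes, had 10.1-fold. Of these 10 coding peaks, Wasf3 and Dagla carried the core within 50 bp of the summit.

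In 3′ UTRs the highest value belonged to Dnalc1, an axonemal dynein light chain gene, at 17.9-fold (chromosome 12, 85483238 to 85483619), above 99.6% of all peaks. Its paired-homeobox joint was 16.5 bp from the summit. Tmem44, a transmembrane protein gene, followed at 15.9-fold (chromosome 16, 30513563 to 30514064) with none of the Pax words searched. Ctdspl2, a phosphatase gene, had 13.4-fold and carried the core. Vezt, which encodes an adherens junction protein, had 13.2-fold, in an exon that 1 of the 2 transcripts there leaves out. Fbxo45, a ubiquitin ligase subunit gene, had 12.3-fold and Pigv, an enzyme of glycolipid anchor synthesis, had 11.8-fold, each with the core. The 3 highest of the 6 peaks in 5′ UTRs were lower. St3gal2, a sialyltransferase gene, had 8.19-fold, Kif24, a kinesin gene, 7.81-fold, and Otoa, an inner ear gene, 5.71-fold.

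The highest exonic peak of all was in a noncoding exon. It lay in exon 3 of 3 of the lincRNA 5330411J11Rik (chromosome 2, 59220507 to 59220987), at 20.9-fold with a −log10 q of 118, rank 25 of all 20579 peaks, and held none of the Pax words within 50 bp of its summit. Gm16727 had 14.8-fold in an exon of 80 bp and held the joint 0.5 bp from its summit. The processed transcript 1700042O10Rik had 13.4-fold. The summits of Gm16727 and 1700042O10Rik also lay within the span of a coding transcript of another gene. This held for 19 of the 103 noncoding exon peaks (18.4%). A930011G23Rik had 10.96-fold and held the core, and the lincRNA 2410003L11Rik had 10.5-fold.

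In the 22 genes with several exonic peaks, the highest fold enrichment was a median of 1.38 times the lowest (range 1.04 to 3.24). The 5 genes with the highest summed values are described here. The 3 peaks of Ttn were all in coding sequence, in exons 66, 265 and 331 of 347, with 5.72-, 6.24- and 3.88-fold enrichment. Those of 2010111I01Rik had 10.9- and 4.49-fold in the same 3′ UTR exon, 415 bp apart, and 3.36-fold in coding sequence. Kcnab1, a potassium channel subunit gene, had 11.3-fold in its 3′ UTR with the core 2.5 bp from the summit, and 4.04-fold in a noncoding exon. Tln2, a talin gene of cell-matrix adhesion, had 7.68-fold in the 3′ UTR and 6.57-fold in coding sequence of exon 16. Scd2, a fatty acid desaturase gene, had 10.3-fold in the 3′ UTR and 3.98-fold in coding sequence of exon 2. Of the 4 genes with peaks in both the 3′ UTR and coding sequence, the highest 3′ UTR peak exceeded the highest coding peak in 3, and in Tpd52, named after its values were seen, the coding peak was higher, at 6.72-fold against 4.80-fold.

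The paired-box core was present at the summits of exonic peaks and scarce in the DNA beside them. GTCACG was found on either strand within 50 bp of the summit in 83 of 524 peaks (15.8%, 13.0 to 19.2%), against 11.1% of all Pax7 peaks. In windows of the same width centred 500 bp to the right it was found in 10 peaks (1.91%). The core was at the summit alone in 81 peaks and in the right flank alone in 8 (McNemar's exact test, two-sided, Benjamini-Hochberg adjusted over 16 motif and class combinations, p = 4.04e-15). In coding sequence it was found in 43 of 196 summit windows (21.9%, 16.7 to 28.2%) and 5 right flanks (adjusted exact p = 1.295e-08). In UTRs the counts were 29 of 225 (12.9%, 9.13 to 17.9%) and 4 (adjusted exact p = 5.829e-05). In noncoding exons they were 11 of 103 (10.7%, 6.07 to 18.1%) and 1 (adjusted exact p = 0.02363). A word of the same length and composition, GCACTG, was in 37 summit windows and 38 right flanks (7.06% and 7.25%, adjusted exact p = 1). Over all Pax7 peaks it was somewhat more frequent at the summit, in 6.86% of summit windows and 5.84% of right flanks. Unlike the core it has no C followed by G, and it was in 8.46% of coding genome windows against 1.79% for the core. It therefore cannot control for a local rise in CG pairs. These tests treat peaks as units of counting, since peaks are not biological replicates.

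**Figure D3:**
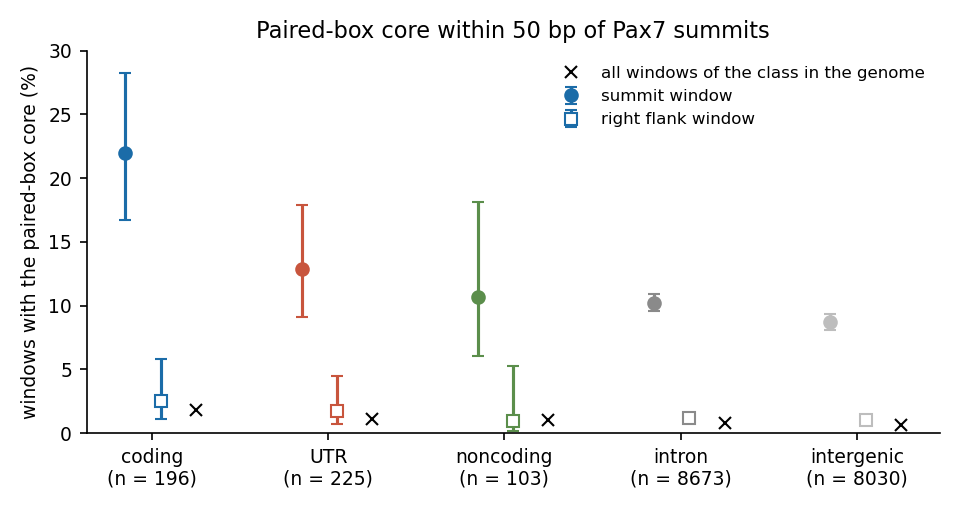
Percent of 101-bp windows with the paired-box core at Pax7 summits (filled circles), 500 bp to the right (open squares) and in all windows of the class in the genome (crosses; a regular subset of windows for introns and intergenic sequence). Bars are 95% Wilson intervals. Summit shares run from 21.9% in coding exons to 8.70% in intergenic sequence, while flanks stay at or below 2.55%.

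Coding exon peaks held the core more often than other peaks away from promoters. Their share exceeded that of intronic peaks (10.2%) by 11.7 percentage points (95% Newcombe interval 6.45 to 18.0), that of UTR peaks by 9.05 points (1.81 to 16.4) and that of noncoding exon peaks by 11.3 points (2.17 to 19.1). UTR peaks differed from intronic peaks by 2.66 points (-1.16 to 7.71) and noncoding exon peaks by 0.452 points (-4.20 to 7.92). Peaks within 1 kb of a TSS had a share of 18.6%, so coding exons were not alone in this. The background share moved the same way. Genome windows of 101 bp lying wholly in the class were scanned, a regular subset of them for introns. The core was in 1.79% for coding sequence, 1.11% for UTRs, 1.01% for noncoding exons and 0.804% for introns. Summits exceeded these shares 12.3-fold (9.34 to 15.8) in coding sequence, 11.6-fold (8.20 to 16.1) in UTRs, 10.6-fold (6.04 to 18.0) in noncoding exons and 12.7-fold (11.9 to 13.5) in introns, values whose intervals overlap. Summit windows did not have to lie wholly in the class as the genome windows did. An exon boundary was within 50 bp of 44.9% of coding, 4% of UTR and 6.80% of noncoding exon summits, so the ratios compare unlike windows. The part that this background had in the higher coding share was not tested.

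The G+C content of the window moved with the core share too. The median was 50.0% at coding summits and 44.6% at intronic summits. In windows below 45% G+C, the core was in 5 of 59 coding peaks (8.47%) and 6.04% of intronic peaks, a difference of 2.44 points (-2.42 to 12.3). From 45 to 55% it was in 13 of 84 coding peaks (15.5%) and 13.2% of intronic peaks, a difference of 2.304 points (-4 to 11.6). At 55% or more it was in 25 of 53 coding peaks (47.2%, 34.4 to 60.3%) and 22.1% of intronic peaks, a difference of 25.1 points (11.9 to 38.6). The interval thus left out 0 in the G+C-rich windows and included it in the other bands, while the change between bands was not tested. Genome windows of 55% or more that lay wholly in the class held the core in 2.37% of cases in coding sequence and 1.51% in introns. UTR peaks in the same band had it in 7 of 27 cases (25.9%), 3.87 points from introns (-9.35 to 22.9).

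The core lay close to the summit. Over the exonic peaks, 59 cores fell in the 50-bp bin centred on the summit (11.3 per 100 peaks), and 19 and 24 in the bins to its left and right. In the other 50-bp bins out to 500 bp there were between 1 and 8. The nearest core was a median of 17.5 bp from the summit, and 53 of the 83 were within 25 bp. It was carried more than once by 9 peaks, and up to 3 times. In Kng1, which encodes a kininogen, 2 cores lay within 50 bp of the summit. The sequence printed above shows the nearer of these among catggt-like repeats.

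**Figure D4:**
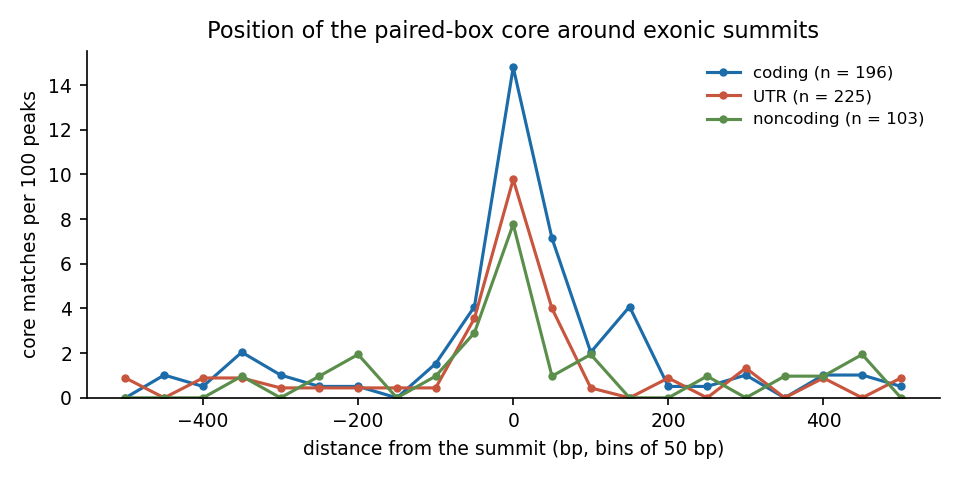
Number of paired-box core matches per 100 peaks (y axis) by distance from the summit (x axis, bp, 50-bp bins) for coding (n = 196), UTR (n = 225) and noncoding exon peaks (n = 103). All 3 lines peak in the bin at the summit, where the exonic peaks together reach 11.3 per 100.

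Exonic peaks with the core had somewhat higher fold enrichment. The median was 5.94 in the 83 with it and 5.24 in the 441 without it. At least 5-fold was reached by 67.5% of the former and 55.6% of the latter, a difference of 11.9 points (0.319 to 22.2). In the separate classes the intervals of this difference included 0, with 9.20 points in coding sequence (-7.61 to 24.3), 18.2 in UTRs (-0.971 to 32.03) and 9.29 in noncoding exons (-20.6 to 32.8). Of the 39 peaks of at least 10-fold, 12 held the core (30.8%, 18.6 to 46.4%) and 4 held the joint. Of the 485 peaks below 10-fold, 71 held the core (14.6%, 11.8 to 18.1%). The matching shares for peaks outside exons were not computed, so these values do not show a trait particular to exonic peaks.

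The bases beside the core differed from those beside other exonic cores. After GTCACG the next base was G in 54.2% and C in 36.1% of the 83 peaks, against 33.5% and 17.6% of 8828 other cores in exons away from promoters. The differences were 20.7 points (10.0 to 31.1) and 18.6 points (9.04 to 29.4). A or T followed in 3.61% and 6.02% of peaks, against 20.3% and 28.6%. The base after that was T in 54.2% of peaks and 27.5% of other cores, 26.7 points apart (16.04 to 37.1). The base before the core was G in 45.8% against 30.03% (15.8 points, 5.41 to 26.5). The positions named are the largest of 64 position and base combinations compared, and their intervals are not adjusted. Intronic peaks with the core showed the same bases at close shares. C or G came next in 90.4% of exonic and 89.9% of intronic peak cores (difference 0.508 points, -7.93 to 5.66), and T was second in 54.2% and 52.9% (1.34 points, -9.81 to 12.1). Wasf3, Dagla, Nup210, Fbxo45 and Pigv, printed above, are examples of a C or G after the core.

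In coding exons the core doubled as codons. It lay wholly in coding sequence in 41 of the 43 peaks. On the coding strand, where in frame it spells a valine codon (GTC) and a threonine codon (ACG), it was in that frame in 15 of 20 peaks (75%, 53.1 to 88.8%). Of 2901 cores on the coding strand of mouse coding sequence, with 1 sequence taken per gene, 47.5% were in that frame, a difference of 27.5 points (5.55 to 41.4). The other frames held 2 and 3 peaks. On the template strand the coding strand reads CGTGAC, in frame an arginine codon and an aspartate codon. Of 21 such peaks, 11 were in that frame (52.4%, against 44.4% of 3574) and 10 read it shifted by 2 bases (47.6%, against 55.6%). The remaining frame, which would place a stop codon (TGA) in the protein, held 0 of 21 peaks and 0 of 3574 cores. Of the 6 frame comparisons, the first is the 1 whose interval left out 0, and the intervals are not adjusted for their number. The comparison cores came from the longest coding sequence of whole codons in each gene. Sequence within 1 kb of a TSS was kept in them, so the sets are not like for like. Cyfip2, a subunit gene of the WAVE complex, is an example of the valine and threonine frame, at 8.77-fold in exon 3 of 31. Dagla and Sbk1, a kinase gene (9.71-fold), carried the arginine and aspartate frame. Wasf3 and Nup210, a nuclear pore gene (8.39-fold), carried the shifted one.

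In UTRs all 29 cores lay wholly in UTR sequence, with 12 on the strand of the gene and 17 on the other. In noncoding exons all 11 lay wholly in the exon.

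The other Pax words were rarer. The joint ATTAGTCA was in 13 exonic summit windows (2.48%) and 2 right flanks (adjusted exact p = 0.02363), against 2.94% of all peaks. By class it was in 2 coding, 8 UTR and 3 noncoding exon peaks. The UTR count against 1 right flank gave an adjusted exact p of 0.104. Its share of all genome windows was 0.0762% in coding sequence, 0.264% in UTRs and 0.262% in noncoding exons. The homeodomain dimer, TAAT and ATTA with any 2 bases between them, was in 1 exonic summit window and 2 right flanks (adjusted exact p = 1), against 0.831% of all peaks. That peak was in a noncoding exon of a retained-intron transcript of Cdh2, the gene of N-cadherin, at 5.59-fold. With the core, the joint or the dimer counted, 96 exonic peaks (18.3%, 15.2 to 21.9%) held a Pax word, against 14.0% of intronic and 12.5% of intergenic peaks. The differences were 4.3 points (1.13 to 7.91) and 5.86 points (2.69 to 9.46). By class the share was 22.4% in coding sequence, 16.4% in UTRs and 14.6% in noncoding exons. The other exonic peaks held none of these letters within 50 bp of the summit.

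Over all protein-coding genes, 448 of 22208 (2.02%) had an exonic peak away from promoters, and the counts for the gene lists are given beside that share. Of 48 myogenic regulators, 2 had one (4.17%). These were Tcf12, an E protein that pairs with muscle bHLH factors, with 8.56-fold in its 3′ UTR and the core 8.5 bp from the summit, and its relative Tcf4, with 3.96-fold in a noncoding exon. Of 54 sarcomere and dystrophin complex genes, 2 had one (3.70%), Ttn as above and Myom2, an M-band gene, with 4.39-fold in a noncoding exon. Of 65 chromatin regulators, 2 had one (3.08%). Stag1, a cohesin subunit gene, had 6.44-fold and Nipbl, the cohesin loader gene, 5.76-fold, both in coding sequence. There were 0 among 41 Hox genes. These counts, and those of the lists that follow, carry no test and are not adjusted for exon length, and a gene without an exonic peak can have peaks elsewhere.

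Of 54 signalling receptor and ligand genes, 6 had an exonic peak (11.1%, against 2.02% of protein-coding genes). Besides Lrp5, the Wnt receptor genes Fzd4 and Lrp6 had 6.08- and 5.90-fold in their 3′ UTRs. Igf1r, the receptor of insulin-like growth factor, had 5.76-fold and Cxcr4, a chemokine receptor of migrating muscle precursors, 4.33-fold, both in coding sequence. Notch1 had 5.55-fold in a noncoding exon of a retained-intron transcript, exonic in 1 of the 6 transcripts there. Of 73 cadherin and protocadherin genes, 4 had one (5.48%). Besides Cdh2, these were Cdh20 (4.71-fold) and the protocadherins Pcdh10 (4.39-fold) and Pcdh7 (4.19-fold), all in coding sequence and the last 2 with the core. Of 55 collagen and laminin genes, 5 had one (9.09%). The laminin gene Lama4 was highest, with 9.39-fold in a noncoding exon of a retained-intron transcript. It was followed by Col13a1 (7.54-fold, 3′ UTR), Col6a1 (5.58-fold, coding), Col24a1 (4.69-fold, coding) and Col1a2 (4.64-fold, noncoding).

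Zinc finger and BTB genes held 14 exonic peaks in 13 of 440 genes (2.95%, against 2.02% of protein-coding genes), with 12 of the peaks in coding sequence. Their median fold enrichment was 4.72, with Zfp51 (12.2-fold) highest, followed by Zfp536 (9.75-fold, 3′ UTR), Zbtb20 (9.74-fold) and Zfp677 (8.16-fold). The summit of Zfp677 was among those with several copies in the genome. The summits of 10 of the 12 coding peaks were in the last exon, where 24.5% of all coding peaks lay. The core was held by 0 of the 12 (0 to 24.25%), an interval that includes the 21.9% of all coding peaks. How much of the coding sequence of these genes lies in last exons was not computed, so the last-exon shares are not like for like. Solute carrier genes held 14 peaks in 14 of 356 genes (3.93%), 8 of them in UTRs. The highest were in Slc17a3 (8.50-fold, coding), Slc2a13 (7.50-fold, noncoding), Slc36a4 (7.26-fold, 3′ UTR) and Slc25a48 (7.15-fold, 3′ UTR, with the core).

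Exonic summits on either side of the distance limit are given here for comparison. Just outside 1 kb, the summit in Spnb5 was 1025 bp from a TSS with 11.5-fold and that in Gm13179 1035 bp with 8.00-fold. Just inside, summits at 990 bp from the TSS of Frmd4a and 991 bp from that of Ccnt1 had 4.16- and 5.46-fold. The median distance to the nearest TSS was 11.3 kb for coding, 8.86 kb for UTR and 4.28 kb for noncoding exon peaks.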

How the data were processed

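Pax7 ChIP was compared with input in 2 libraries each. The authors aligned reads to mm9, kept uniquely mapped reads, removed duplicates and called peaks with MACS2 on merged replicates. The deposited list gives 1 row per peak. The fold enrichment is a ratio the authors computed at the summit. The authors also deposited −log10 p and q values, the lowest −log10 q being 2.07, and a score that is the −log10 q times 10 without its decimals. Read depth is not in the list, so no single peak has an interval. Per-sample columns that matched no sample numbered 0.

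Summits were placed on the NCBIM37 genome (chromosomes 1 to 19 and X) and GENCODE vM1, 1-based. A summit in several kinds of exon counted as coding before UTR before noncoding. Both strands were scanned for each word, to 50 bp on either side of the summit and of points 500 bp away. Shares have 95% Wilson intervals, differences Newcombe intervals, and called differences are those whose interval leaves out 0. McNemar's exact test was two-sided with Benjamini-Hochberg adjustment. The procedures were tested on simulated data. Named peaks were the highest by fold enrichment in each class, those with Pax words, members of the gene lists (the 4 highest of a list with more than 6), the 5 genes with the highest summed fold enrichment over several peaks, and those nearest the 1 kb limit. The members, lists and tests were chosen with earlier results of these data known, and the G+C bands and the bases after intronic cores after these values were seen. Alternatives are given in the closing section. The tools were scipy 1.17.1, pandas 2.3.3, numpy 2.4.6 and matplotlib 3.10.9 under Python 3.11.15.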

Additional observations from a re-analysis of the deposited data

How the results depend on the processing

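No paired analysis was possible because the peaks were called on merged replicates, and for the same reason no replicate could be left out. Of 57 alternatives, 44 kept the direction and the side of the threshold, or the count within 1.5 times. With 5 kb from any TSS the exonic peaks numbered 338 and the noncoding exon peaks 45. With TSSs of protein-coding transcripts only, noncoding exon peaks rose in number to 194, and with noncoding exons placed before the other classes to 155. A fold enrichment of at least 5, which by construction removes weaker peaks, left 301 exonic peaks, 109 coding, 135 UTR and 57 noncoding. The difference from intronic peaks in the share of at least 5-fold turned to -0.647 points for exonic peaks on a cut of 7-fold. For coding exon peaks it turned to -3.525 points on that cut, -0.988 against intergenic peaks, -2.47 with 5 kb from any TSS and -1.63 with a −log10 q of at least 5. No interval of these differences left out 0, the main ones included, and the cause was not tested. The excess of the paired-box core at the summit held under all 6 alternatives run for exonic and for coding exon peaks, from 8.97 to 16.6 and from 12.8 to 22.0 percentage points, with McNemar's exact p up to 0.00391. The peak list limits the work in that depth, replicate spread and cells without Dox were not analysed here.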
